A study of Mus musculus with 8 samples.

Results

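The genes described here are the glucocorticoid receptor and 9 genes that respond to it or set its hormone supply, namely Nr3c1, Hsd11b1, Fkbp5, Tsc22d3, Errfi1, Sgk1, Klf9, Klf15, Zbtb16 and Glul. They were chosen by gene name, with earlier results of these data known, as 10 of the 32390 rows of a table of read counts per gene, and all 10 were among the 12725 rows with enough counts to be tested. RNA came from whole gastrocnemius muscle, a mixed calf muscle, of 21-month-old male mice on a C57BL/6 background that were fed standard chow. The controls were 4 mice of genotype Nox4 fl/fl, in which both copies of Nox4 carry loxP sites, and the NOX4-deficient mice were 4 animals of genotype MckCre:Nox4 fl/fl, in which the muscle creatine kinase promoter drives Cre and so limits the deletion to skeletal and cardiac muscle. Both groups therefore shared the floxed allele and differed in Cre, and no Cre-only control was among the 8 libraries. NOX4 is an NADPH oxidase that makes hydrogen peroxide, and the comparison addresses what its loss from aged muscle changes in RNA abundance.

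The glucocorticoid receptor is held in the cytoplasm by HSP90 and its co-chaperones, moves to the nucleus when it binds corticosterone, the main glucocorticoid of mice, and there raises the transcription of some genes and lowers that of others. Corticosterone rises daily before the active phase and again with fasting and stress. In skeletal muscle the receptor is known for shifting fuel use toward fat and amino acids and for inducing genes of protein breakdown, and several of its targets, such as Fkbp5 and Tsc22d3, are widely used as readouts of its activity.

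Values are CPM, read counts relative to library size, scaled by the trimmed mean of M-values, and errors are SD over 4 mice. A gene was called changed where the quasi-likelihood F test of edgeR gave an adjusted p under 0.05 (Benjamini-Hochberg, over all tested genes) and the absolute log2 fold change exceeded 0.5. The 8 libraries held 16350548 to 19804661 counts. Nox4 itself, the check of the labels, was sparse and stood at 5.09, 2.47, 1.87 and 3.64 CPM in controls 1 to 4 and at 1.74, 2.17, 2.21 and 2.17 CPM in NOX4-deficient mice 1 to 4. The genotypes overlapped in Nox4, whose log2 fold change of -0.65 (SE 0.29) had an adjusted p of 0.207, so that the RNA alone did not separate the labels. Skeletal muscle markers were abundant in every library, with a summed level of 143490 to 175388 CPM in controls and 153513 to 181515 CPM in NOX4-deficient mice, and 0 of 10 were called by edgeR, by DESeq2 or at an unadjusted p under 0.05. In bulk muscle, fewer cells of a type and less RNA per cell cannot be told apart.

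Of the 10 genes, 5 were lower in NOX4-deficient muscle and 0 were higher, against 3.48% of all tested genes called lower, 2.68% called higher and 6.16% called in either direction. The 5 were Zbtb16, Fkbp5, Glul, Errfi1 and Klf15, whose fitted levels in controls were 3.95-, 3.27-, 2.68-, 1.76- and 1.65-fold those in NOX4-deficient mice. At an unadjusted p under 0.05, 7 of the genes were lower and 0 higher, against 12.5% of all tested genes lower, 10.7% higher and 23.2% in either direction, and DESeq2 and pydeseq2 also called 5 lower and 0 higher. All 10 log2 fold changes were negative, with a median of -0.57 against 0.01 over all tested genes. For 6 of the 10, every NOX4-deficient mouse lay below every control, which held for 8.97% of all tested genes, and for 0 every NOX4-deficient mouse lay above every control, which held for 7.2% (16.2% in either direction). The receptor gene Nr3c1, Hsd11b1, Sgk1, Klf9 and Tsc22d3 did not meet both criteria of the call.

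**Figure D1:**
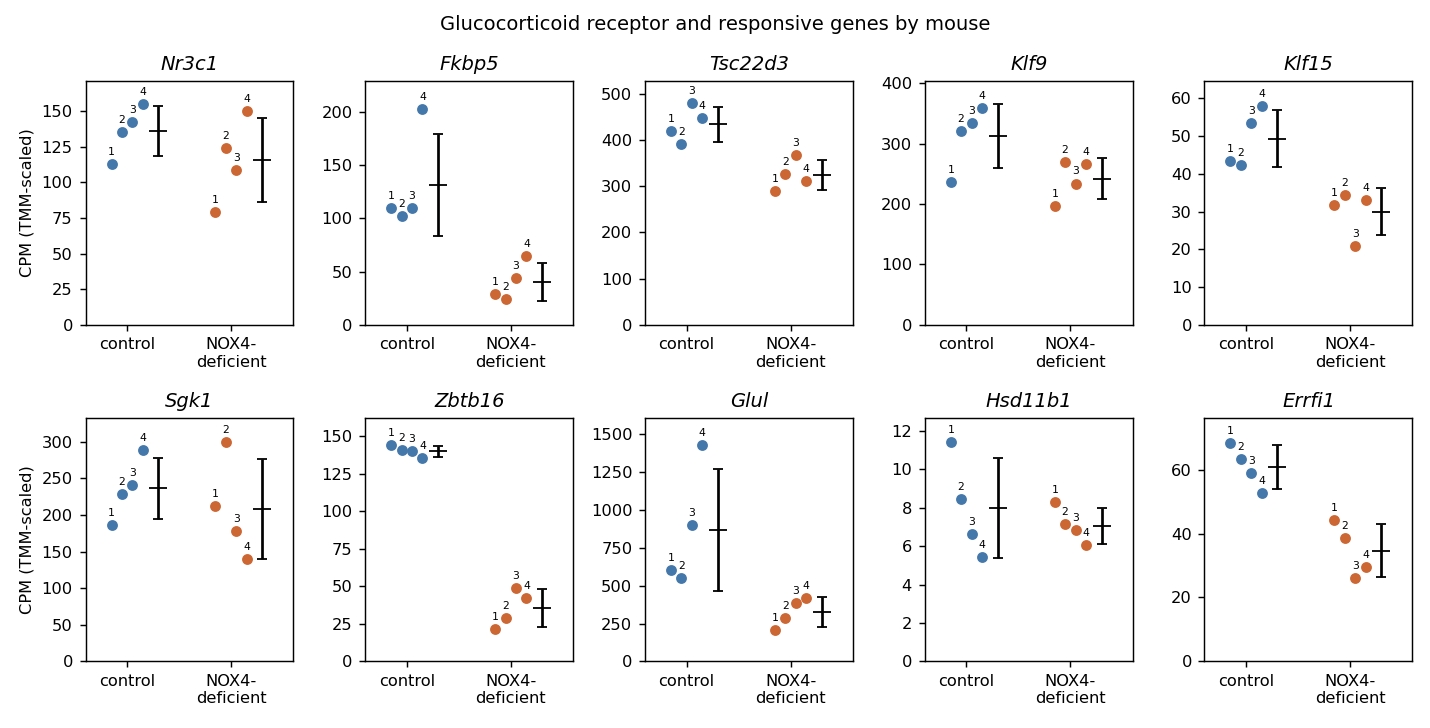
CPM of the 10 genes in each of the 8 mice (numbered points), with the mean and SD of each genotype as bars beside them; every axis starts at 0. The genotypes do not overlap for Fkbp5, Tsc22d3, Klf15, Zbtb16, Glul and Errfi1, and they overlap for Nr3c1, Klf9, Sgk1 and Hsd11b1.

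Per kilobase of exon, Glul was the most abundant of the genes in control muscle, at a mean of 262 CPM per kilobase with mice between 165 and 430. Tsc22d3 followed at 100.1, Klf9 at 65.0, Sgk1 at 48.2 and Zbtb16 at 26.5 CPM per kilobase. Nr3c1 at 17.7, Klf15 at 17.7, Errfi1 at 17.0 and Fkbp5 at 13.9 CPM per kilobase had overlapping ranges over mice, as did Klf9 and Sgk1, so that the order within these sets was not resolved. Hsd11b1 was the least abundant, at 1.88 CPM per kilobase. In NOX4-deficient muscle the same scale gave 97.8 for Glul, 74.7 for Tsc22d3, 50.2 for Klf9, 42.4 for Sgk1, 15.04 for Nr3c1, 10.7 for Klf15, 9.67 for Errfi1, 6.71 for Zbtb16, 4.25 for Fkbp5 and 1.66 for Hsd11b1. Zbtb16 was above Nr3c1, Klf15, Errfi1 and Fkbp5 in every control mouse, while in NOX4-deficient muscle its range of 4.05 to 9.31 CPM per kilobase overlapped those of Errfi1, Klf15 and Fkbp5 and lay below that of Nr3c1.

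The starts of 8 of the genes were found in the RefSeq promoter table of build GRCm38.p6, with 16 transcription starts in all, and the 250 bases before each start were searched for 2 sequences. The first was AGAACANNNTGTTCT, the palindromic form of the glucocorticoid response element, which reads the same on both strands, together with its part AGAACA on either strand. The second was CACGTG, an E-box that clock factors and other basic helix-loop-helix proteins bind, also a palindrome. The full response element was present before 1 start, of Sgk1, and before 3 of the 32851 promoters of the table, which is 0.00913%. Its part AGAACA stood before 4 of the 16 starts, of Sgk1 and Tsc22d3, and in 16.1% of all promoters. CACGTG stood before 3 of the 16 starts and in 6.02% of all promoters. Of the genes with CACGTG, Fkbp5 and Klf15 were called lower, and Sgk1, with the full element, was not. Glul and Errfi1, also called lower, had no CACGTG in their windows. Nr3c1 and Zbtb16 had no entry in the promoter table and were not searched. The 3 windows that hold CACGTG are shown. Each is printed 5′ to 3′ on the strand of the gene, with CACGTG and the full response element in capitals, at chr17:28486150-28486399 on the minus strand for Fkbp5, chr6:90462326-90462575 on the plus strand for Klf15 and chr10:21993640-21993889 on the plus strand for Sgk1.
Fkbp5: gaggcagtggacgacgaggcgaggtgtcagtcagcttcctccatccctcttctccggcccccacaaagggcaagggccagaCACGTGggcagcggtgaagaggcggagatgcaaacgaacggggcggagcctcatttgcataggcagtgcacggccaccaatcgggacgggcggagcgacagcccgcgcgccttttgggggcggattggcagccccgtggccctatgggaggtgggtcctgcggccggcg
Klf15: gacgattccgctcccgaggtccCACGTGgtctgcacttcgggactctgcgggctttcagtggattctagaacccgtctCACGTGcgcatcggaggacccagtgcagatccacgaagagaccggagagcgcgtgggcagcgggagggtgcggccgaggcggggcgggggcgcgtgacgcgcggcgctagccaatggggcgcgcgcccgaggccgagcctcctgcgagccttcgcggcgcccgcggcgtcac
Sgk1: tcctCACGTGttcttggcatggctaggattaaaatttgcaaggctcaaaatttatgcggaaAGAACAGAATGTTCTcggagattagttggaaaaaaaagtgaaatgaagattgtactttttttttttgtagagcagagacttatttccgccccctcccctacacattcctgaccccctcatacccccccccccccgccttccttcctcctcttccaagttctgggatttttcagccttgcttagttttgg
The E-box began 169 bases before the start in Fkbp5, 228 and 172 bases before it in Klf15, and 246 bases before it in Sgk1, where it shares letters with a TGTTCT match. The full element began 189 bases before the Sgk1 start. Such matches describe the letters of these windows and not bound sites, receptor sites are known to lie mostly far from starts, and a window without a match says nothing about the receptor.

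Nr3c1 encodes the glucocorticoid receptor. It stood at 113, 135, 143 and 155 CPM in controls 1 to 4 and at 79.5, 124, 109 and 150.2 CPM in NOX4-deficient mice 1 to 4. NOX4-deficient mice 1 and 3 were below all controls and NOX4-deficient mouse 4 was above 3 of them, so the genotypes overlapped. The means were 136 ± 17.6 and 116 ± 29.5 CPM, and the log2 fold change of -0.24 (SE 0.17, 95% interval -0.61 to 0.13) had an adjusted p of 0.438. It was -0.085 without NOX4-deficient mouse 1 and -0.38 without NOX4-deficient mouse 4.

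Hsd11b1 encodes the enzyme that regenerates active glucocorticoid from its inactive keto form inside cells. Its CPM was 11.4, 8.44, 6.64 and 5.46 in controls and 8.30, 7.13, 6.83 and 6.04 in NOX4-deficient mice. The NOX4-deficient mice lay within the range of the controls, which was the wider. The log2 fold change of -0.17 (SE 0.21, interval -0.64 to 0.29) had an adjusted p of 0.679, and it turned to 0.046 (adjusted p = 0.921) without control 1.

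Fkbp5 encodes a co-chaperone that lowers the affinity of the receptor for hormone and is itself induced by the receptor, a short feedback loop. It stood at 110.1, 103, 109.5 and 203 CPM in the 4 controls and at 28.7, 24.1, 43.8 and 64.5 CPM in the NOX4-deficient mice. Control 4 stood well above the other controls, and the highest NOX4-deficient mouse was still below the lowest control. Fkbp5 fell from 131 ± 48.0 to 40.3 ± 18.2 CPM, a log2 fold change of -1.71 (SE 0.34, interval -2.48 to -0.94, adjusted p = 0.0190). Without control 4 the change was -1.42 (adjusted p = 0.0325). The call was lost without NOX4-deficient mouse 1 (adjusted p = 0.0589), without NOX4-deficient mouse 2 (0.0508) and without the filter on low counts (0.0827), at log2 fold changes between -1.71 and -1.52.

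Tsc22d3 encodes GILZ, a leucine zipper protein that carries part of the anti-inflammatory effect of glucocorticoids. Controls stood at 419.7, 391, 479.7 and 447 CPM and NOX4-deficient mice at 289.9, 327, 369 and 312 CPM. Every NOX4-deficient mouse was below every control, by a small margin between NOX4-deficient mouse 3 and control 2. The means were 434 ± 38.0 and 324 ± 33.2 CPM, and the log2 fold change of -0.42 (SE 0.11, interval -0.66 to -0.19) had an adjusted p of 0.0340. It passed the p threshold and missed the one on fold change, so it was not called. The adjusted p stayed under 0.05 without control 2 (0.0457) or NOX4-deficient mouse 3 (0.0370). Without any other single library it was 0.0523 to 0.115. With no minimum fold change, 4.62% of all tested genes were lower and 7.75% lower or higher, and of the 10 genes Tsc22d3 joined the 5 already called.

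Errfi1 encodes MIG6, an inhibitor of the EGF receptor whose transcription is raised by glucocorticoids and by growth factors. It measured 68.4, 63.3, 58.8 and 52.6 CPM in controls and 44.2, 38.7, 26.1 and 29.5 CPM in NOX4-deficient mice. The genotypes were separate, with NOX4-deficient mouse 1 nearest to the controls. Errfi1 fell from 60.8 ± 6.75 to 34.6 ± 8.34 CPM, a log2 fold change of -0.81 (SE 0.16, interval -1.16 to -0.47, adjusted p = 0.0108). The call held without each library in turn, at adjusted p-values of 0.00513 to 0.0310.

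Sgk1 encodes a kinase of the AKT family, induced by glucocorticoids and by osmotic stress, that phosphorylates FOXO factors. Its level was 186, 229, 241 and 288 CPM in controls and 212, 300.0, 178 and 140.2 CPM in NOX4-deficient mice. NOX4-deficient mouse 2 was the highest and NOX4-deficient mouse 4 the lowest of all 8 mice. The log2 fold change of -0.18 (SE 0.21, interval -0.64 to 0.27) had an adjusted p of 0.649. It was -0.42 without NOX4-deficient mouse 2 and -0.023 without NOX4-deficient mouse 4.

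Klf9 encodes a Krüppel-like transcription factor that is an immediate target of the receptor in many tissues. It stood at 237, 321, 335 and 358 CPM in controls and at 197, 269, 234 and 267 CPM in NOX4-deficient mice. Control 1 fell among the NOX4-deficient mice, and the other controls were above all of them. The means were 313 ± 52.8 and 242 ± 33.7 CPM, with a log2 fold change of -0.37 (SE 0.14, interval -0.68 to -0.06) and an adjusted p of 0.137.

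Klf15 encodes a Krüppel-like factor through which glucocorticoids act on branched-chain amino acid and lipid use in muscle. Controls stood at 43.5, 42.4, 53.5 and 58.0 CPM and NOX4-deficient mice at 31.8, 34.3, 20.8 and 33.0 CPM. The genotypes were separate, and NOX4-deficient mouse 3 was the lowest. Klf15 fell from 49.3 ± 7.62 to 30.0 ± 6.19 CPM, a log2 fold change of -0.72 (SE 0.16, interval -1.07 to -0.37, adjusted p = 0.0195). The call was lost without control 3 (-0.66, adjusted p = 0.0587) and without control 4 (-0.63, adjusted p = 0.0578).

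Zbtb16 encodes PLZF, a zinc finger transcription factor that glucocorticoids induce strongly in several tissues. It measured 144, 141, 141 and 135 CPM in the 4 controls and 21.4, 28.7, 49.2 and 42.5 CPM in the 4 NOX4-deficient mice. The controls were nearly equal, with an SD of 2.64% of their mean, while the SD of the NOX4-deficient mice was 35.7% of theirs, and the genotypes were far apart. Zbtb16 fell from 140.2 ± 3.70 to 35.5 ± 12.7 CPM, which left 25.3% of the control level, with a log2 fold change of -1.98 (SE 0.21, interval -2.45 to -1.51, adjusted p = 0.000601). It ranked 28 by p among all tested genes, and its call held under each of the 19 alternatives, including the removal of each library, where adjusted p-values ran from 0.000165 to 0.00386.

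Glul encodes glutamine synthetase, which makes the glutamine that muscle exports when amino acids are broken down. Controls stood at 606, 548, 899 and 1429 CPM and NOX4-deficient mice at 205, 289.8, 384 and 421 CPM. Control 4 was the highest of all mice, and every NOX4-deficient mouse was below every control. Glul fell from 871 ± 403 to 325 ± 97.5 CPM, a log2 fold change of -1.42 (SE 0.33, interval -2.16 to -0.68, adjusted p = 0.0316). It was -1.08 (adjusted p = 0.0418) without control 4, and the call was lost without control 3 (adjusted p = 0.0663) or NOX4-deficient mouse 1 (0.0755), 2 (0.111) or 3 (0.0589), without the filter on low counts (0.128) and in a fit that adjusted for odd or even replicate number (0.0650). In the GENCODE M21 annotation exons of Teddm2, on the opposite strand, and of Mir8114 overlap those of Glul, and reads of an unstranded library cannot be told apart there.

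**Figure D2:**
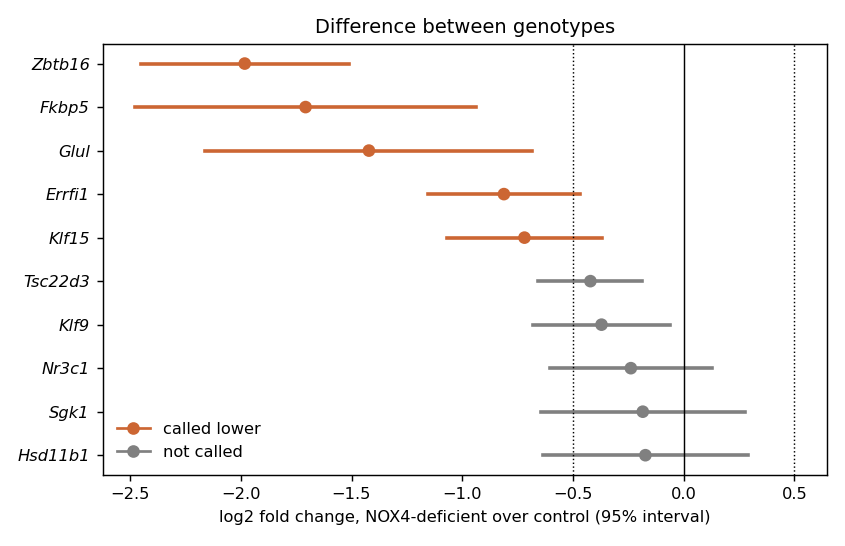
Log2 fold change of each of the 10 genes, NOX4-deficient over control, with its 95% interval from the edgeR fit; dotted lines mark the minimum fold change of a call. The intervals of Zbtb16, Fkbp5, Glul, Errfi1, Klf15, Tsc22d3 and Klf9 lie below 0, and those of Nr3c1, Sgk1 and Hsd11b1 span it.

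Between mice of one genotype the genes did not move as one group. With each genotype mean removed from log2 CPM, the 45 pairs of genes had Pearson correlations over the 8 mice from -0.87 to 0.87, with a median of 0.24, and 26 were positive and 19 negative. By an exact two-sided permutation test within genotypes, 8 pairs had a p under 0.05 by Pearson and 8 by Spearman, and 0 passed after Benjamini-Hochberg adjustment over the 45 pairs, where the smallest adjusted p was 0.0781 by Pearson and 0.208 by Spearman. The smallest p that the 576 permutations can give is 0.00174, at which a lone pair would have an adjusted p of 0.0781, so that the design could hardly pass the adjustment. Genes of one library also share its depth and scaling. Of the pairs with a p under 0.05, Nr3c1 and Klf9 varied in the same direction (r = 0.87, exact permutation p = 0.00347, adjusted p = 0.0781; rho = 0.90, p = 0.0139, adjusted p = 0.208), and r was 0.98 without NOX4-deficient 1 and 4, the mice farthest from the median of Nr3c1. Here and below, the mice left out were the farthest for only 1 gene of the pair, and genotype means were not recomputed. Fkbp5 and Glul, both called lower, also varied in the same direction (r = 0.81, exact permutation p = 0.0208, adjusted p = 0.145; rho = 0.79, p = 0.0382, adjusted p = 0.254), but r was 0.52 without control 4 and NOX4-deficient 4, so that part of it rested on those mice. Nr3c1 and Glul (r = 0.72, exact permutation p = 0.0347, adjusted p = 0.195; rho = 0.76, p = 0.0660, adjusted p = 0.297) gave 0.60 without NOX4-deficient 1 and 4. Hsd11b1 and Errfi1 (r = 0.65, exact permutation p = 0.0122, adjusted p = 0.109; rho = 0.74, p = 0.0278, adjusted p = 0.250) gave 0.69 without controls 1 and 4.

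The other 4 pairs with a p under 0.05 varied in opposite directions. Hsd11b1 ran against Nr3c1 (r = -0.73, exact permutation p = 0.00347, adjusted p = 0.0781; rho = -0.83, p = 0.0104, adjusted p = 0.208), with r at -0.88 without NOX4-deficient 1 and 4. It also ran against Klf9 (r = -0.87, exact permutation p = 0.00694, adjusted p = 0.104; rho = -0.81, p = 0.0451, adjusted p = 0.254), with r at -0.61 without control 1 and NOX4-deficient 1. Errfi1 ran against Glul (r = -0.81, exact permutation p = 0.0104, adjusted p = 0.109; rho = -0.83, p = 0.0226, adjusted p = 0.250), with r at -0.77 without control 4 and NOX4-deficient 1, although both genes were called lower between genotypes. Hsd11b1 ran against Glul as well (r = -0.86, exact permutation p = 0.0226, adjusted p = 0.145; rho = -0.90, p = 0.0139, adjusted p = 0.208), with r at -0.76 without control 4 and NOX4-deficient 1. None of these passed the adjustment.

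The order of the mice, read from the same deviations, gave no single split. Control 4 was the highest of the controls for Nr3c1, Fkbp5, Klf9, Klf15, Sgk1 and Glul, and the lowest for Zbtb16, Hsd11b1 and Errfi1. Control 1 was the highest for those last 3 genes and the lowest for Nr3c1, Klf9 and Sgk1. Among the NOX4-deficient mice, mouse 1 was the lowest for Nr3c1, Tsc22d3, Klf9, Zbtb16 and Glul and the highest for Hsd11b1 and Errfi1, while mouse 4 was the highest for Nr3c1, Fkbp5 and Glul and the lowest for Sgk1 and Hsd11b1.

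**Figure D3:**
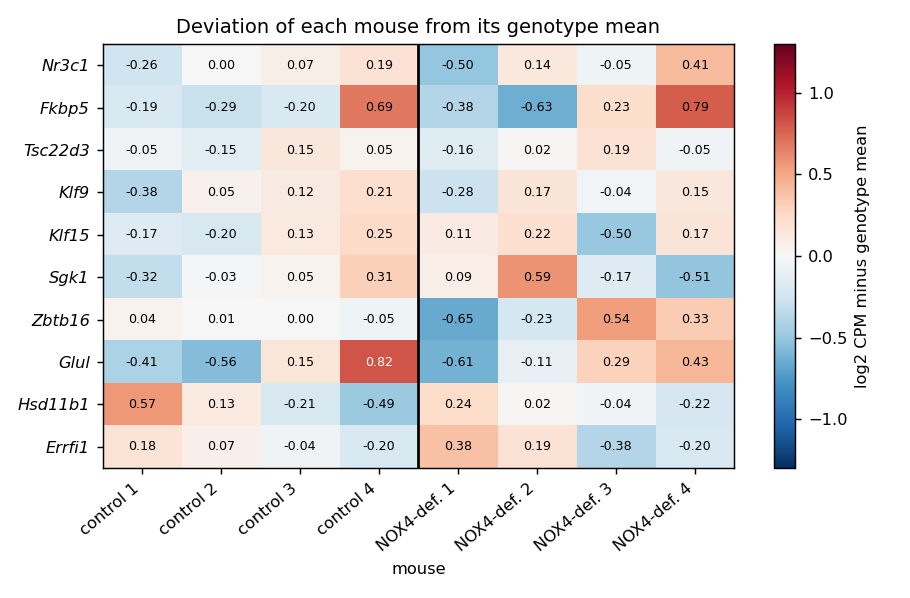
Log2 CPM of each of the 10 genes in each mouse minus the mean of its genotype; red is above and blue below that mean, and the black line divides controls from NOX4-deficient mice. In control 4, Fkbp5 (0.69) and Glul (0.82) are raised while Hsd11b1 (-0.49) and Errfi1 (-0.20) are lowered.

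The tested genes whose variation within genotypes was most like that of Fkbp5 were Gm49086 (r = 0.97 over 8 mice), C630043F03Rik (0.95), Chrdl2 (0.94), Foxred1 (0.94) and Tmem144 (0.93). These r values are descriptive, since the genes were picked as the highest of all. None of the 5 was called between genotypes, and apart from Foxred1, at 17.0 ± 1.36 CPM in controls, they were sparse, with control means of 1.13 to 4.31 CPM.

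Genes that bind, fold or assist the receptor formed a list of 22, of which 21 were tested. Of these 21, 2 were lower and 0 higher (3.48% and 2.68% of all tested genes), with a median log2 fold change of -0.17. At an unadjusted p under 0.05, 6 were lower and 0 higher (12.5% and 10.7% of all tested genes), and DESeq2 and pydeseq2 called 2 lower and 0 higher. Both called genes belong to the HSP90 chaperone cycle, which holds the receptor ready for hormone. Ptges3, the p23 co-chaperone, fell from 103 ± 9.49 to 64.4 ± 6.10 CPM (log2 fold change -0.68, SE 0.11, adjusted p = 0.00312). Hsp90aa1, the stress-inducible HSP90, fell from 80.4 ± 13.4 to 46.7 ± 3.11 CPM (-0.78, SE 0.12, adjusted p = 0.00327). The more abundant Hsp90ab1 was at 1614 ± 53.4 and 1326 ± 69.3 CPM, with an adjusted p of 0.0939, and the co-chaperone Fkbp4, which favors hormone binding where FKBP5 opposes it, had a log2 fold change of 0.01. The mineralocorticoid receptor Nr3c2, which also binds corticosterone, had one of 0.25 (adjusted p = 0.493).

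A second list held 40 further genes that glucocorticoids are known to induce in muscle or elsewhere, 38 of them tested. Of these 16 were lower and 0 higher (3.48% and 2.68% of all tested genes), with a median log2 fold change of -0.82, 34 negative values and 4 positive. At an unadjusted p under 0.05, 26 were lower and 0 higher (12.5% and 10.7% of all tested genes), and DESeq2 and pydeseq2 each called 19 lower and 0 higher. Without control 4, 11 were lower. By smallest p the first was Lpin1, a phosphatidate phosphatase, which fell from 718 ± 169 to 265 ± 55.6 CPM (-1.44, SE 0.18, adjusted p = 0.000961). Next came Mt1, a metallothionein, from 16.6 ± 5.55 to 4.68 ± 0.967 CPM (-1.83, SE 0.23, adjusted p = 0.000994), and Pnpla2, the triglyceride lipase ATGL, from 356 ± 60.6 to 157 ± 28.3 CPM (-1.19, SE 0.15, adjusted p = 0.000994). Sdc4, a syndecan, and Zfp36, which speeds the decay of inflammatory mRNAs, followed at -1.13 and -1.17 (adjusted p = 0.00132 and 0.00143). Not all well-known targets were lower, and 2 are named here after their values were seen. Per1, a direct target of the receptor and a clock gene, was at 69.2 ± 13.5 and 76.7 ± 21.3 CPM (0.15, adjusted p = 0.689), and Dusp1, a phosphatase of MAP kinases, was at 64.4 ± 21.1 and 70.8 ± 14.9 CPM (0.14, adjusted p = 0.774).

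Known targets of KLF15, whose own gene was lower, were read from a list of 15, all tested. Of these 2 were lower and 0 higher (3.48% and 2.68% of all tested genes), with a median log2 fold change of -0.18. Cd36, a fatty acid transporter, fell from 441 ± 69.8 to 268 ± 60.2 CPM (-0.72, SE 0.16, adjusted p = 0.0189), and Slc27a1, another, from 108 ± 17.5 to 70.7 ± 12.0 CPM (-0.61, SE 0.14, adjusted p = 0.0243). The enzymes of branched-chain amino acid breakdown on the list (Bcat2, Bckdha, Bckdhb and Dbt) had log2 fold changes between -0.23 and 0.17 and were not called. At an unadjusted p under 0.05, 4 of the 15 were lower and 0 higher (12.5% and 10.7% of all tested genes), and DESeq2 and pydeseq2 called 2 lower and 0 higher. The count of 2 went to 0 without control 2 or without NOX4-deficient mouse 1, and to 1 without control 1 or NOX4-deficient mouse 3.

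**Figure D4:**
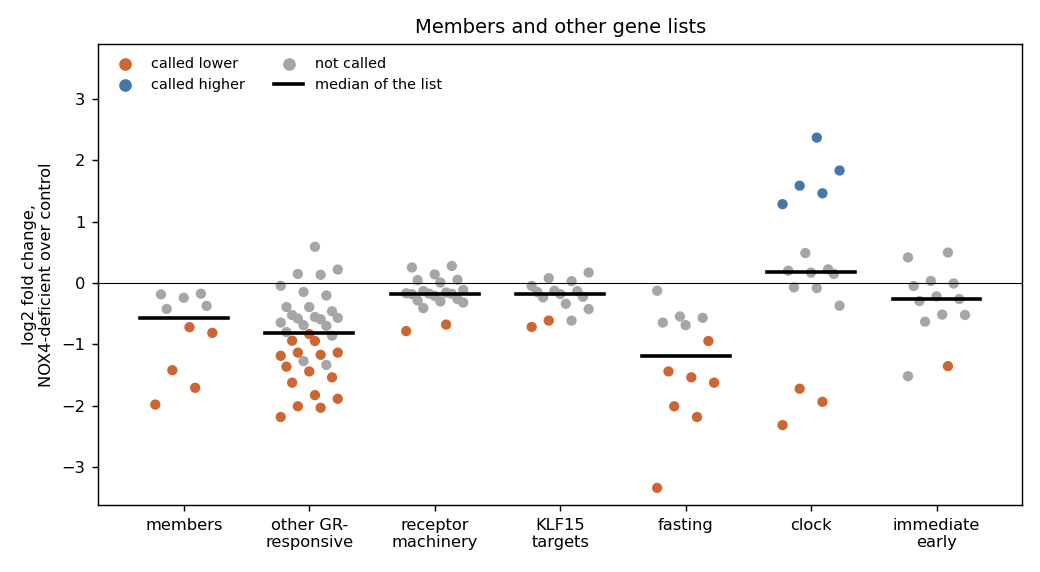
Log2 fold change, NOX4-deficient over control, of the 10 genes (members) and of the tested genes of the other lists, with orange for called lower, blue for called higher and gray for not called; black bars are medians. The medians are -0.57 for the 10 genes, -0.82 for other glucocorticoid-responsive (GR-responsive) genes, -0.17 for the receptor machinery, -0.18 for KLF15 targets, -1.19 for fasting genes, 0.19 for clock genes and -0.26 for immediate early genes.

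Genes that follow feeding state and time of day, which also move corticosterone, differed between the same mice. Of 12 fasting-responsive genes, 9 of which are on the list of other glucocorticoid-responsive genes, 7 were lower and 0 higher by edgeR, DESeq2 and pydeseq2 (by edgeR, 3.48% and 2.68% of all tested genes). At an unadjusted p under 0.05, 8 were lower and 0 higher (12.5% and 10.7% of all tested genes). The summed level of the 12 was 4391 to 6382 CPM in controls and 1227 to 2249 CPM in NOX4-deficient mice. The 5 with the smallest p were Acot1 (log2 fold change -3.34), Lpin1 (-1.44), Trim63 (-2.18), Fbxo32 (-1.62) and Sesn1 (-0.95), of which only Acot1 is not on that list. Of 16 clock genes, 3 were lower and 5 higher by edgeR, DESeq2 and pydeseq2 (by edgeR, 3.48% and 2.68% of all tested genes). The counts were the same at an unadjusted p under 0.05 (12.5% and 10.7% of all tested genes). Their summed levels, 836 to 980.4 CPM in controls and 999 to 1144 CPM in NOX4-deficient mice, mix genes that moved in opposite directions. Among them Per3 (1.84), Hlf (1.46) and Bhlhe41 (1.29) were higher, and Nfil3 (-1.72) and Npas2 (-2.32) were lower. Of 13 tested immediate early genes, 1 was lower, Atf3 (-1.36, adjusted p = 0.0175), and 0 were higher (3.48% and 2.68% of all tested genes). At an unadjusted p under 0.05, 4 were lower and 0 higher (12.5% and 10.7% of all tested genes), and DESeq2 called 2 lower and 0 higher. Their summed level was 416 to 485 CPM in controls and 300.1 to 521 CPM in NOX4-deficient mice. None of these lists had a marker at 0 in all libraries, and their part in the lower Zbtb16, Fkbp5, Glul, Errfi1 and Klf15 was not tested.

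Blood and other cell types were read from marker lists. Of 3 blood markers in the table, the hemoglobin genes Hba-a1 (1.24, adjusted p = 0.00978) and Hbb-bs (1.00, adjusted p = 0.0153) were higher, against 2.68% of all tested genes. The summed level of the 3 was 47.6 to 52.7 CPM in controls and 72.3 to 159 CPM in NOX4-deficient mice. For the other cell types edgeR called 0 markers in either direction. Summed levels in controls and NOX4-deficient mice were 28.3 to 69.7 and 17.5 to 37.2 CPM for 7 tested macrophage and leukocyte markers, 163 to 299 and 160.2 to 209.9 CPM for 7 adipocyte markers, and 366 to 652 and 367 to 614 CPM for 8 fibroblast and tendon markers. They were 241 to 292 and 262 to 299 CPM for 8 endothelial markers, 295 to 641 and 386 to 1157 CPM for 8 slow fiber markers, and 24.7 to 36.7 and 33.8 to 73.5 CPM for 4 Schwann and satellite cell markers. At an unadjusted p under 0.05, 2 macrophage and leukocyte markers were lower, and 3 fibroblast and tendon, 2 Schwann and satellite cell and 1 endothelial marker were higher, while 0 adipocyte and 0 slow fiber markers were either. Over all tested genes 12.5% were lower and 10.7% higher. All 8 slow fiber and all 4 Schwann and satellite cell markers had positive log2 fold changes, with medians of 0.64 and 0.45. The slow fiber sum was highest in NOX4-deficient mouse 4, at 1157 CPM. DESeq2 and pydeseq2 called 1 Schwann or satellite cell marker higher and 0 markers of the remaining types. The part of blood or of these cell types in the lower members of the receptor's gene group was not tested.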

How the data were processed

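Total RNA of gastrocnemius muscle from 4 control and 4 NOX4-deficient mice was sequenced by the authors from poly(A)-selected, unstranded, paired-end libraries. The authors deposited whole-number read counts per gene, made with the nf-core RNA-seq pipeline; STAR and genome build GRCm39 are named in the submitters' processing notes, and the annotation and counter settings are not given in the sources used here. The labels put all libraries in 1 batch. Groups came from the genotype labels and replicate numbers from the titles. Of 32390 rows, 412 repeated a gene name, in which case the row with the most counts was used for a named gene, and 11715 held no counts. Depth ran from 16350548 to 19804661 counts per library.

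Counts were analyzed as deposited with edgeR 4.0.16 in R 4.3.3 (TMM scaling, filterByExpr, robust quasi-likelihood F test, no covariates), with Benjamini-Hochberg adjustment over the 12725 tested rows. Alternatives were DESeq2 1.42.0, pydeseq2 0.5.4, other scaling, filters and thresholds, a replicate block, and leaving out each library. Log2 CPM used a prior count of 2. Correlations between genes were computed in Python 3.11.15 with scipy 1.17.1, by exact permutation within genotypes. On simulated data for this comparison, with 12589 genes tested, the fit recovered 73.5% of 196 genes changed by a log2 fold change of 1, and 7.10% of its calls were false. Replicates of one genotype differed beyond counting noise in all 12 pairs, with a chi-square per degree of freedom of 12.6 to 52.1. Litters and the time of tissue collection are not given in the sources used here, and p-values measure the spread between these 8 samples.

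The 10 genes and all gene lists were chosen with earlier results of these data known. Named genes were the 10 genes, Nox4, up to 5 called genes with the smallest p in each list, the 5 most like Fkbp5, and exceptions stated in the text. Levels per kilobase used exon lengths of GENCODE M21, and promoter windows were taken from RefSeq, both on GRCm38.p6; no coordinates of GRCm38.p6 and GRCm39 were combined, and the counts were joined to them by gene symbol only.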

Additional observations from a re-analysis of the deposited data

Results flagged for a closer look

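Among 34 groups of 4 mice tested with Dixon's ratio for a single value apart from the rest, 2 exceeded the 95% critical value, and chance flags about 1 in 20 groups, here 1.7. The Fkbp5 level of control 4, 203 CPM, was the highest of the controls with a ratio of 0.927. The Nox4 level of NOX4-deficient mouse 1, 1.74 CPM, was the lowest of its group with a ratio of 0.918, in a group whose other values nearly coincided.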

How the results depend on the processing

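Results that changed under an alternative are these. At an adjusted p under 0.01, genes called lower were 156 and higher 96 in place of 443 and 341, members of the gene group called lower were 1, other glucocorticoid-responsive genes lower were 10, and KLF15 targets lower were 0. With no filter on low counts 3 of the group were lower in place of 5. Leaving out 1 library gave 295 to 425 genes lower and 204 to 317 higher, both lowest without control 4, 3 to 5 of the group lower, 11 to 16 other responsive genes lower, 2 of the receptor machinery lower throughout, and 0 to 2 KLF15 targets lower. The group had 3 without control 3 (Klf15 and Glul lost) and without NOX4-deficient 1 or 2 (Fkbp5 and Glul lost). The log2 fold change of Hsd11b1, -0.17, ranged from -0.32 (without control 4) to 0.046 (without control 1). That of Sgk1, -0.18, ranged from -0.42 (without NOX4-deficient 2) to -0.023 (without NOX4-deficient 4). That of Nr3c1, -0.24, ranged from -0.38 (without NOX4-deficient 4) to -0.085 (without NOX4-deficient 1). DESeq2 called 579 genes lower and 439 higher, and pydeseq2 576 and 433. In 0 settings was a gene of the group, the receptor machinery, the other responsive genes or the KLF15 targets called higher. Deviations of same-numbered mice correlated at 0.22, 0.15, 0.04 and 0.04 for numbers 1 to 4. Whether same-numbered mice share more than a number is not given in the sources used here. A replicate block gave 543 genes lower and 390 higher and 5 of the group lower. With 4 mice a genotype, some log2 fold changes carried wide errors, with an SE of 0.34 for Fkbp5, 0.33 for Glul and 0.29 for the sparse Nox4. A difference that missed the threshold is not shown to be absent.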
